A study of Mus musculus with 24 samples.

Results

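The subject of this report is the difference between the effects of dietary methionine restriction (MR) on a subcutaneous fat pad when MR is built on casein and when it is built on free amino acids. For every gene the difference is the MR effect on casein (oxidized casein MR minus casein control) minus the MR effect on elemental amino acids (elemental MR minus elemental control), on the log2 scale. A positive value means that MR moved the gene further up, or less far down, on casein. The contrast used all 24 libraries of the series, 6 for each of 4 diets, and all 15176 genes with enough reads for a test, of 16821 listed. Its terms follow from the design, though it was chosen with earlier results of these data known.

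All mice were male C57BL6/J animals on the diets for 12 weeks from 5 weeks of age, and were 4 months old at collection after a 4 h fast. Oxidized casein MR mice ate casein whose methionine had been lost by oxidation, with methionine returned to 0.17%. Casein control mice ate casein not described as oxidized, and the series' design text gives the control diets 0.86% methionine. Elemental MR mice ate single amino acids with 0.17% methionine, and elemental control mice ate single amino acids with 0.86% methionine. RNA came from pieces of inguinal white adipose tissue (IWAT), the fat pad of the groin, and was read by sequencing of transcript 3′ ends. The series' design text names the liver, while the source and extraction fields of each sample name IWAT. Because only the casein MR diet was oxidized, oxidation and methionine level cannot be told apart on casein or in the difference described here.

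Methionine is an essential amino acid, and its restriction is known to make inguinal fat of mice leaner and richer in mitochondria and thermogenic adipocytes. The same fat makes fatty acids from glucose: citrate leaves the mitochondrion, is cleaved to acetyl-CoA by Acly, is carboxylated by Acaca and is built into palmitate by Fasn, then lengthened and desaturated by Elovl6 and Scd1. Transcription of these enzymes is driven by SREBP-1c, encoded by Srebf1, and by ChREBP, encoded by Mlxipl. Insig1 encodes a protein of the endoplasmic reticulum that retains SREBPs there and is itself a transcriptional target of SREBPs.

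The libraries held between 7468336 and 19868913 counted reads, and precision was set by the spread between mice. They also differed in the other tissue they carried. Lymph node transcripts, called present where B cell markers averaged more than 4 on the log2 CPM scale (CPM, reads of a gene scaled to its library's total), were found in 2 of 6 oxidized casein MR, 4 of 6 casein control, 5 of 6 elemental MR and 4 of 6 elemental control libraries. Acta1, the actin of skeletal muscle, stood above 1000 CPM in elemental MR replicate 2 and elemental control replicate 2 only. Elemental MR replicate 2 was also the only elemental MR library without lymph node transcripts. Within libraries without them, every elemental MR effect and every difference between the MR effects therefore rests on that 1 muscle-rich library. These counts are not balanced over the diets, so values with and without these libraries are given for the counts of calls, the list medians and the named genes that they moved most. In bulk tissue, fewer cells of a type and less RNA per cell cannot be told apart.

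Of the 24 process gene lists, fatty acid synthesis had the highest median difference between the MR effects, and no single gene passed the test of the difference in edgeR. Some marker lists of other cells had higher medians, among them skeletal muscle (1.75), hepatocytes (1.65) and red blood cells (1.32). The muscle median was -1.69 without elemental control replicate 2, and the hepatocyte median 0.14 without elemental control replicate 6. In edgeR's quasi-likelihood test with Benjamini-Hochberg adjustment, 0 of 15176 genes (0%) had an adjusted p under 0.05. At an unadjusted p under 0.05 there were 506 genes (3.33%), 319 with a larger MR effect on casein (2.1%) and 187 with a smaller one (1.23%). DESeq2 called 2 genes (0.0132%), Insig1 and Scd1, and had 560 genes at an unadjusted p under 0.05. limma voom called 0 and had 480. The count of 506 was 311 without casein control replicate 6, and 763, 1062, 864 and 768 without casein control replicate 4, casein control replicate 5, oxidized casein MR replicate 5 and elemental MR replicate 2, taken 1 at a time. With lymph node presence in the model DESeq2 called 7 genes, all with a larger MR effect on casein, namely Insig1, Scd1, Acaca, Fasn, Acss2, Parm1 and the class I histocompatibility gene H2-Q10. DESeq2 adjusts over the genes kept by its default filter on mean count. That set differed between fits, so the counts of 2 and 7 do not compare directly. The smallest edgeR adjusted p was 0.703, for Insig1, and the next was 0.91.

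A missed threshold does not show equal effects, and the intervals say how far the effects could differ. The median difference over all genes tested was 0.01, with 7789 genes (51.3%) above 0, and the median standard error (SE) was 0.31. Each MR effect had a median SE of 0.22, so the difference was the less precise quantity. The 95% interval lay wholly within 1 log2 unit of 0, a factor of 2, for 8482 genes (55.9%). Among the 11034 genes that averaged 2 or more on the log2 CPM scale this held for 74.4%.

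Each MR effect alone gave calls. On casein 579 genes passed (3.82%), 509 of them higher with MR, and on elemental amino acids 37 passed (0.244%), 33 of them higher. Such counts do not test the difference, and they moved with the lymph node setting, the tool and single libraries. With lymph node presence in the model 1120 genes passed on casein and 166 on elemental amino acids. Within libraries with lymph node transcripts 5 passed on each source, and within those without 172 passed on casein, 97 of them lower with MR, and 0 on elemental amino acids. The elemental comparison without lymph node transcripts held 1 MR library, so its count says little. On elemental amino acids 8 passed without the muscle-rich libraries. DESeq2 called 930 genes on casein (6.13%) and 216 on elemental amino acids (1.42%). With single libraries left out the casein count was 316, 350 and 377 without casein control replicate 6, oxidized casein MR replicate 1 and casein control replicate 1. On elemental amino acids it was 7 when elemental control replicate 5 or elemental MR replicate 6 was absent, and 8 when elemental control replicate 2, elemental control replicate 4 or elemental MR replicate 4 was. It was 15 without elemental control replicate 6, 57 without casein control replicate 6 and 252 without elemental control replicate 1. Over all genes the median absolute log2 fold change was 0.23 for MR on casein and 0.17 for MR on elemental amino acids.

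**Figure D1:**
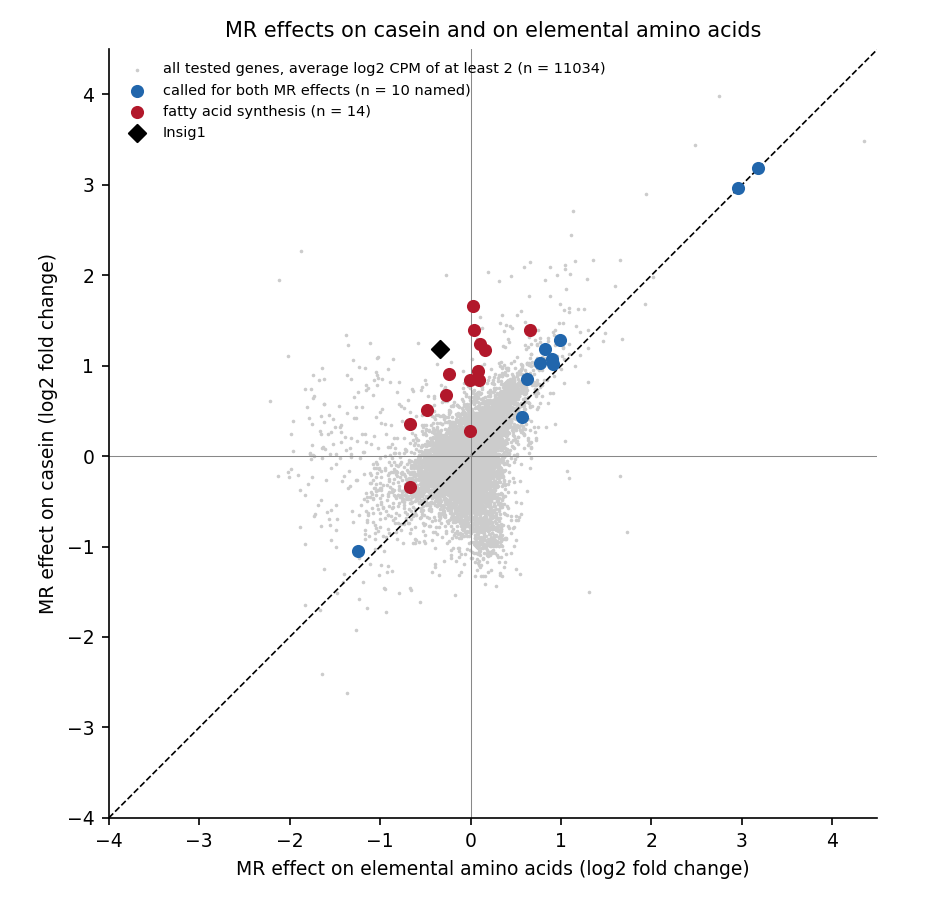
MR effect on casein (vertical axis) against MR effect on elemental amino acids (horizontal axis), both as log2 fold changes from edgeR. Grey points are the 11034 tested genes that averaged 2 or more on the log2 CPM scale, and the dashed line marks equal effects. The 14 fatty acid synthesis genes lie above the line, and Insig1 is up on casein (1.19) and at -0.34 on elemental amino acids.

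Insig1 (ENSMUSG00000045294, GRCm38 chr5:28071363-28078662, plus strand) had the smallest p of all genes. Its lowest, median and highest levels were 90.2, 105 and 176 CPM with oxidized casein MR, against 32.4, 51.3 and 69.0 CPM in casein controls. Those with elemental MR were 86.0, 104 and 137 CPM, against 92.2, 128 and 237 CPM in elemental controls. All 6 oxidized casein MR libraries lay above all 6 casein controls, while the elemental groups overlapped. Insig1 rose 2.28-fold with MR on casein (edgeR adjusted p = 0.00446) and had a log2 fold change of -0.34 on elemental amino acids (edgeR adjusted p = 0.651). The difference was 1.53 (SE 0.31, 95% interval 0.89 to 2.16). In DESeq2 it was 1.55, with an adjusted p of 0.0111. That DESeq2 call held in 22 of 24 fits that each left out 1 library, and was lost without oxidized casein MR replicate 1 (adjusted p = 0.0546), which had the highest level of its group, and without elemental MR replicate 5.

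Insig1 also shows which diet stood apart. All 6 casein controls lay below all 6 elemental controls (log2 difference -1.48, edgeR adjusted p = 0.00247), whereas oxidized casein MR and elemental MR differed by 0.05 (edgeR adjusted p = 0.961). Casein controls were the low group and the other 3 diets overlapped.

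Scd1, the Δ9 desaturase that makes oleate and palmitoleate (chr19:44394455-44407879, minus strand), had the same arrangement at a far higher level. It had 13355, 18299 and 22135 CPM with oxidized casein MR, against 5556, 9339 and 14154 CPM in casein controls. On elemental amino acids it had 11990.2, 13806 and 18258 CPM with MR, against 11512, 17019 and 21234 CPM in controls. Of the oxidized casein MR libraries 5 of 6 lay above every casein control, and the elemental groups overlapped in full. Scd1 rose 1.88-fold with MR on casein (edgeR adjusted p = 0.00951), and the difference was 1.14 (SE 0.28, 95% interval 0.57 to 1.71). Its DESeq2 call (difference 1.16, adjusted p = 0.0381) was made in 8 of 24 fits that each left out 1 library. Without casein control replicate 5 its unadjusted DESeq2 p was 1.64e-05 (adjusted p = 0.0134). Without elemental control replicate 1 that p was smaller, 1.49e-05, yet the adjusted p was 0.112. DESeq2 adjusts over the genes that its default filter on mean count keeps, so the call also moved with that set.

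Among the other lipogenic regulators, Mlxipl rose 2.14-fold with MR on casein (edgeR adjusted p = 0.011) and its log2 fold change on elemental amino acids was 0.51 (edgeR adjusted p = 0.471), a difference of 0.59 (SE 0.34). Its levels were 61.2, 75.4 and 121 CPM with oxidized casein MR, against 19.7, 41.2 and 50.8 CPM in casein controls. All 6 oxidized casein MR libraries lay above all 6 casein controls for this gene. Its difference was 0.31 within libraries without lymph node transcripts. Srebf1 had a difference of 0.68 (SE 0.38), with overlapping groups on each protein source, and this was 0.43 with lymph node presence in the model and 0.06 within libraries without lymph node transcripts. Its exons overlap Rai1 on the other strand, and the strand setting of the counts is not given in the sources used here.

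Mid1ip1, a cofactor that promotes polymerization of acetyl-CoA carboxylase, had a difference of 0.99, and its relative Thrsp 0.85. The adipocyte master regulator Pparg had 0.58. The SREBP-2 gene Srebf2 had -0.39, its escort Scap -0.14, Insig2 0.18, the ChREBP partner Mlx 0.17, and the liver X receptors Nr1h2 and Nr1h3 0.20 and 0.07. Of the 12 regulators 10 were above 0, 3 had an unadjusted p under 0.05 (Insig1, Mid1ip1 and Thrsp), and the median was 0.39, against 0.01 over all genes.

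All 14 tested members of the fatty acid synthesis list were above 0, where 51.3% of all genes were, and 11 had an unadjusted p under 0.05 in that direction, against 2.1% of all genes. The median difference was 0.97, from 0.28 to 1.63, and none had an edgeR adjusted p under 0.05. With MR on casein the median log2 fold change was 0.88 and 9 members rose (Acly, Acaca, Acacb, Fasn, Slc25a1, Me1, Pcx, Elovl6 and Scd1). With MR on elemental amino acids the median was 0.01 and 0 passed. When single libraries were left out, 7 to 9 passed on casein and 0 on elemental amino acids each time, and on casein 0 passed within libraries with lymph node transcripts and 5 within those without. Over all genes 3.82% passed on casein and 0.244% on elemental amino acids. Fads2, the 15th gene listed, was not tested.

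Acaca, acetyl-CoA carboxylase (chr11:84129672-84401651, plus strand), had 608, 653 and 858 CPM with oxidized casein MR, against 140.2, 270.4 and 552 CPM in casein controls. With elemental MR it had 636, 774 and 1054 CPM, against 607, 666 and 1163 CPM in elemental controls. Every casein control was below every library of the other 3 diets. Acaca rose 2.36-fold with MR on casein (edgeR adjusted p = 0.00619), and the difference was 1.14 (SE 0.34, 95% interval 0.44 to 1.84).

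Fasn, fatty acid synthase (chr11:120805846-120824547, minus strand), had 3774, 5024 and 6782 CPM with oxidized casein MR, against 974, 2067 and 3994 CPM in casein controls. Elemental MR libraries had 5351, 6526 and 9488 CPM, against 4863, 5442 and 9426 CPM in elemental controls. On casein 4 of 6 MR libraries lay above all controls, and on elemental amino acids the ranges coincided. The 95% interval of the Fasn difference ran from 0.28 to 1.74.

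Acly, ATP citrate lyase, had 337, 648 and 1109 CPM with oxidized casein MR, against 139, 258 and 397 CPM in casein controls. Levels with elemental MR were 769, 1005 and 1931 CPM, against 642, 1048 and 1631 CPM in elemental controls. The casein controls were again the low group, and oxidized casein MR stood between them and the elemental diets, with 4 of its 6 libraries below all elemental MR libraries. The difference in Acly was 1.36 (95% interval 0.46 to 2.26). Elovl6, which lengthens palmitate, had the largest difference of the list, 1.63, with the widest interval of the members named here, 0.42 to 2.85. Its exons overlap Gm35986 on the other strand.

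Acss2, which makes acetyl-CoA from acetate (chr2:155517948-155585724, plus strand), had 60.8, 86.7 and 133 CPM with oxidized casein MR, against 48.6, 64.7 and 74.9 CPM in casein controls. On elemental amino acids it had 78.1, 100.2 and 170.2 CPM with MR, against 107, 147 and 196 CPM in controls. It leaned in opposite directions, with 5 of 6 oxidized casein MR libraries above all casein controls and 4 of 6 elemental MR libraries below all elemental controls. Neither MR effect passed (log2 fold change 0.51 on casein and -0.48 on elemental amino acids, edgeR adjusted p = 0.151 and 0.327). Its exons overlap Gss, glutathione synthetase, on the other strand.

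Only 5 genes tested had opposite signs with an unadjusted p under 0.05 for each MR effect, and none of these 10 effects passed. They were Acss2, the glycosyltransferase gene B4galt3, the kinase gene Mark3, Mxi1, a repressor of the MYC network, and Pdzk1ip1. B4galt3 and Mark3 were lower with MR on casein, and Acss2 and Mxi1 were higher.

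Pcx, pyruvate carboxylase, which refills oxaloacetate for citrate export (chr19:4510472-4621752, plus strand), had 165, 203 and 252 CPM with oxidized casein MR, against 56.7, 126 and 137 CPM in casein controls. With elemental MR it had 162, 201 and 237 CPM, against 158, 190.4 and 254 CPM in elemental controls. The MR effect on elemental amino acids was -0.01, and all 6 casein controls lay below every library of the other 3 diets. The citrate carrier gene Slc25a1 had a difference of 0.85, malic enzyme Me1 0.75, Acacb, the carboxylase isoform of the mitochondrial surface, 0.75, and the desaturase genes Scd2 and Fads1 1.03 and 0.94. The smallest differences of the list were those of Fads3 (0.33) and Elovl5 (0.28), each with an interval across 0.

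**Figure D2:**
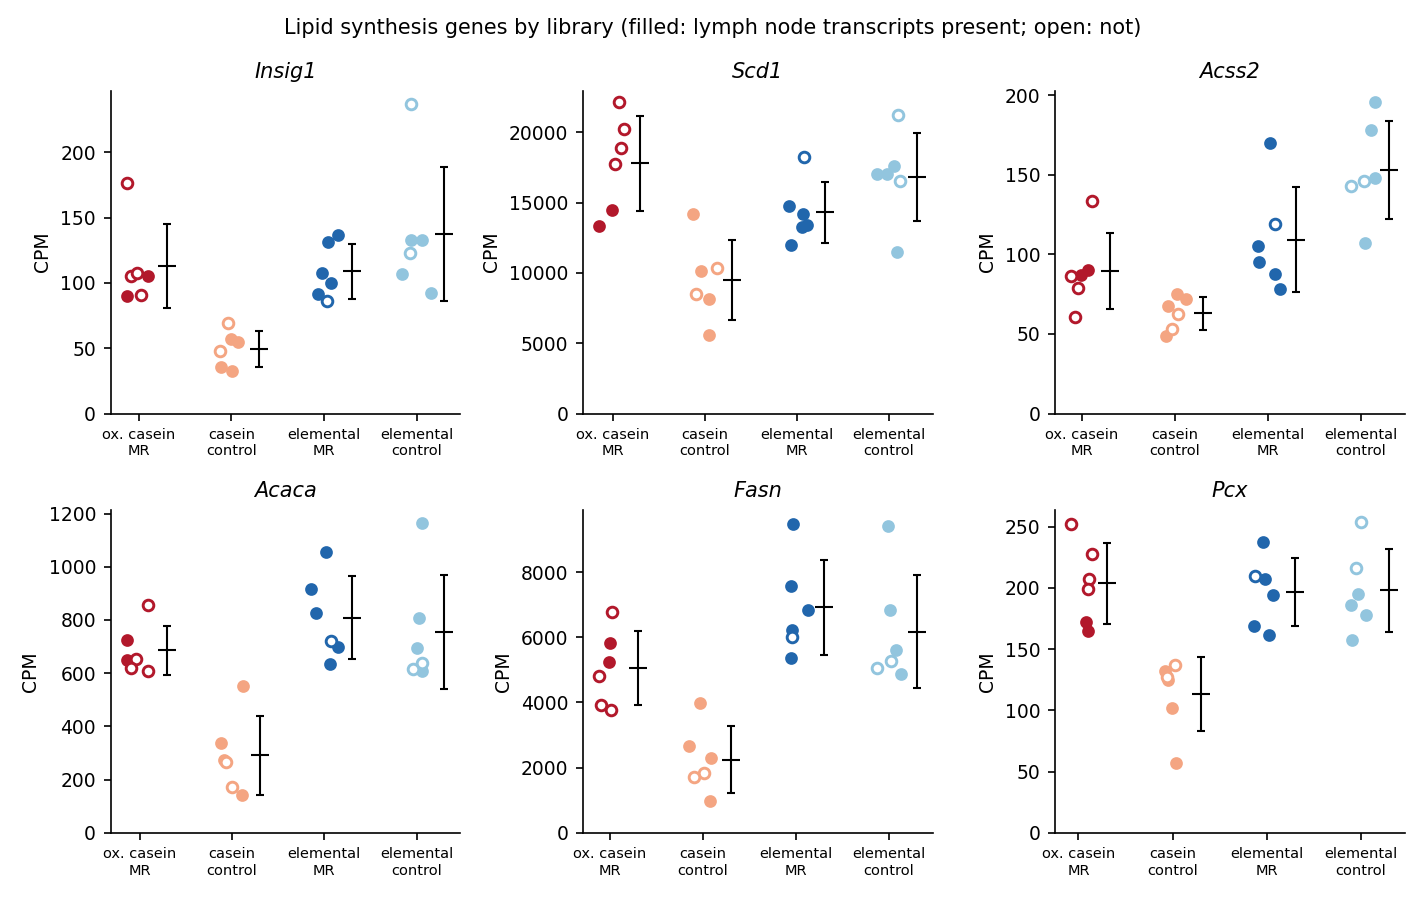
Levels in CPM (vertical axes, linear from 0) of 6 lipid synthesis genes in every library by diet, with the mean and SD of 6 libraries drawn beside the points. Filled points are libraries with lymph node transcripts and open points those without. The casein controls have the lowest mean in each panel, and for Insig1 all 6 lie below all libraries of the other diets.

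The size of the fatty acid synthesis difference changed little with lymph node tissue, although fewer genes passed within each kind of library. The median difference of the fatty acid synthesis list was 0.95 with lymph node presence as a model term, 0.90 within the 15 libraries that carried it and 0.92 within the 9 that did not, and it ran from 0.87 to 1.12 when single libraries were left out. The mean level of its members on the log2(CPM + 2) scale can be read in each kind of library. In those with lymph node transcripts the medians were 8.45 in oxidized casein MR (n = 2), 7.73 in casein control (n = 4), 8.62 in elemental MR (n = 5) and 8.83 in elemental control (n = 4). In those without they were 8.42 in oxidized casein MR (n = 4), 7.57 in casein control (n = 2), 8.72 in elemental MR (n = 1) and 8.65 in elemental control (n = 2). Casein controls were lowest in both.

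Promoter sequences of 3 of the genes described above show the letters near their starts. Insig1 is a regulator, Acss2 and Fasn are fatty acid synthesis genes, and each matched 1 window. They are examples with a marked motif, and other genes described above also matched 1 window. The sequences are RefSeq windows on GRCm38.p6, from 250 bases before to 50 bases after the start, printed 5′ to 3′ on the gene's strand. Capitals mark the NF-Y box CCAAT or its complement ATTGG; no window held TCACNCCAC, the core of a sterol regulatory element, on either strand. In the Fasn window the run CCAATTGG holds overlapping matches on both strands.
Insig1 (chr5:28071162-28071461, plus strand): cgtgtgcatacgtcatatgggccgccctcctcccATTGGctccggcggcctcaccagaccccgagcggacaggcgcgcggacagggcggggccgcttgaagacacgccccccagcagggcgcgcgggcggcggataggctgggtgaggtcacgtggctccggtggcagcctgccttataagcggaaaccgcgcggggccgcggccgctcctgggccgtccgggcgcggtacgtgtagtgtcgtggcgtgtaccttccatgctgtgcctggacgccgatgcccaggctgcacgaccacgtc
Acss2 (chr2:155517793-155518092, plus strand): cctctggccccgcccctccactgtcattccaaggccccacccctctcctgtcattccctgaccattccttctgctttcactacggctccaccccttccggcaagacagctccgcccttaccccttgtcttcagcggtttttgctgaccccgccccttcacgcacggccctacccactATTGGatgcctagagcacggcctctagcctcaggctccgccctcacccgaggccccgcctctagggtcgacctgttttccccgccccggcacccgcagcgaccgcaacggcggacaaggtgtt
Fasn (chr11:120824498-120824797, minus strand): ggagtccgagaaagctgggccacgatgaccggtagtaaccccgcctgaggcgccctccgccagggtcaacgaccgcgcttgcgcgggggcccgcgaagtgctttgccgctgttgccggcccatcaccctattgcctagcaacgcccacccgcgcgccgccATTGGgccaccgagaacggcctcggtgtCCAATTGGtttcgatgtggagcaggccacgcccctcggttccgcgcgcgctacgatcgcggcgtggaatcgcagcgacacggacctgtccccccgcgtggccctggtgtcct

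An NF-Y box was found in promoter windows of 9 of the 11 fatty acid synthesis genes that matched the table. Of the 13 windows of those 11 genes 10 held one, whereas 37.4% of all 32851 windows did. The windows of Acaca and Elovl6, 1 each, held none. The sterol regulatory element core was found in 0 of the 13, against 1.24% of all windows, and the E-box CACGTG in 3 of the 13, against 7.15%. Among 21 windows of the 12 regulators these counts were 10, 1 and 5 in the same order of motifs. Scd1, Scd2, Fads1 and Fads2 were not matched. A match is a description of these letters only, and sites outside the window were not searched.

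Glyceride synthesis, which joins fatty acids to glycerol, differed less. Of 14 members 12 were above 0 and 2 had an unadjusted p under 0.05, Gpam and Agpat2, with a median of 0.25. Gpam, the first acyltransferase of the pathway, rose 2.33-fold with MR on casein (edgeR adjusted p = 0.00849) and had a difference of 0.86 (SE 0.35). It had 3.4, 3.92 and 6.02 CPM with oxidized casein MR, against 1.12, 1.87 and 2.47 CPM in casein controls, and these groups did not overlap. Agpat2 had a difference of 0.70, and its exons overlap Egfl7 on the other strand.

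With MR on casein 7 glyceride genes passed (Gpd1, Gpam, Agpat2, Agpat3, Dgat1, Pck1 and Acsl1), and with MR on elemental amino acids Agpat3 did. The median log2 fold changes were 0.63 and 0.39. The elemental count was 4 in DESeq2 or without elemental control replicate 1, and 0 without elemental control replicate 2. All 6 elemental MR libraries lay above all elemental controls for Pck1 and Acsl1, against 3, 3, 1 and 5 of 6 for Gpd1, Gpam, Agpat2 and Dgat1. Over all genes 3.82% passed on casein and 0.244% on elemental amino acids. Within libraries with lymph node transcripts 0 glyceride genes passed on either source. Agpat3 rose in both, 1.57-fold on casein, with a difference of 0.04 (95% interval -0.33 to 0.41). Dgat1, which adds the last acyl chain of triglyceride, had 0.36, and Gpd1, which supplies glycerol phosphate, 0.47. The list median was 0.11 with lymph node presence in the model and 0.06 within libraries without lymph node, so it was less steady than that of fatty acid synthesis.

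Lists tied to the carbon supply of lipogenesis leaned the same way. Pcx of the pyruvate list and Me1 of the NADPH list are also on the fatty acid synthesis list. The pyruvate list holds the kinases Pdk1 to Pdk4 too, which inhibit pyruvate dehydrogenase, so its counts do not measure carbon flow. Of its 14 genes, for the pyruvate carrier and pyruvate dehydrogenase, 13 were above 0 and 6 had an unadjusted p under 0.05, with a median of 0.43. The median lay between 0.45 and 0.56 under the other scaling, filter, lymph node, muscle and tool settings, and between 0.35 and 0.54 when single libraries were left out. MR raised 10 of them on casein, where 3.82% of all genes passed, and 0 on elemental amino acids, where 0.244% did. The median log2 fold changes were 0.98 on casein and 0.46 on elemental amino acids. The elemental count was 4 without elemental control replicate 1, and 2 in DESeq2 or with lymph node presence in the model. On casein 0 passed within libraries with lymph node transcripts and 5 within those without. Mpc1, a subunit of the mitochondrial pyruvate carrier, had a difference of 0.88 (SE 0.39), Pdhb of pyruvate dehydrogenase 0.73 and Pdha1 0.63, with Pdha1 overlapping Map3k15. In NADPH supply 9 of 9 were above 0 with a median of 0.36, led by Tkt, transketolase, at 1.02 (SE 0.39). In glucose uptake and glycolysis 15 of 19 were above 0 with a median of 0.35; Aldoa had 0.63 and Gapdh 0.62, and Hk1 lay at -0.37. These 3 overlap genes on the other strand. Within libraries without lymph node transcripts the NADPH and glycolysis medians were 0.09 and 0.06, and Pdha1, Aldoa and Gapdh had 0.25, 0.31 and 0.30.

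Cholesterol synthesis and uptake, the branch governed by SREBP-2, had 17 of 21 members above 0, 6 at an unadjusted p under 0.05 and a median of 0.36. No member passed for either MR effect. Sc5d, which acts late in the pathway, had a difference of 0.84, the cyclase Lss 0.73, Nsdhl 0.64 and Msmo1 0.55. Their MR effects had opposite signs, from 0.21 to 0.57 on casein and from -0.40 to -0.07 on elemental amino acids. The list median lay between 0.33 and 0.39 under the other scaling, filter, lymph node, muscle and tool settings, and between 0.22 (without oxidized casein MR replicate 1) and 0.50 (without casein control replicate 5) when single libraries were left out. Sc5d was 0.40 within libraries with lymph node transcripts and Nsdhl 0.36 within those without.

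Angptl8, which encodes a secreted inhibitor of lipoprotein lipase made after feeding (chr9:21835510-21837347), had 14.0, 16.8 and 33.6 CPM with oxidized casein MR, against 4.07, 8.27 and 9.79 CPM in casein controls. Elemental MR libraries had 15.3, 22.7 and 30.8 CPM, against 15.7, 20.9 and 26.2 CPM in elemental controls. It rose 2.67-fold with MR on casein (edgeR adjusted p = 0.00253), and the difference was 1.29 (SE 0.33, 95% interval 0.61 to 1.98). All 6 casein controls lay below all libraries of the other 3 diets.

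Hsd11b1, which regenerates active glucocorticoid, had 204, 299 and 384 CPM with oxidized casein MR, against 65.7, 120.1 and 148 CPM in casein controls. Levels with elemental MR were 221, 277 and 348 CPM, against 168, 197 and 330.4 CPM in elemental controls. It rose 2.61-fold with MR on casein (edgeR adjusted p = 0.00073), with a log2 fold change of 0.37 on elemental amino acids (edgeR adjusted p = 0.532). The difference was 1.02 (SE 0.27), and 0.58 within libraries with lymph node transcripts. Cp, the copper oxidase ceruloplasmin, rose 2.30-fold with MR on casein and had a log2 fold change of 0.20 on elemental amino acids, and its exons overlap Hps3. Parm1, a membrane mucin-like protein, rose 2.78-fold with MR on casein and had a difference of 1.15.

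Srbd1 and Bmyc, also among the 12 genes with the smallest p in this direction, were placed differently. For Srbd1 all 6 elemental MR libraries lay below all 6 elemental controls (log2 fold change -0.54, edgeR adjusted p = 0.064), and the MR effect on casein was 0.06. Bmyc had 0.28 on casein and -0.40 on elemental amino acids. Within libraries with lymph node transcripts all 12 kept their sign and 4 were smaller by more than 1.5 times, and within those without all 12 kept it and 1 was. These genes, Insig1, Scd1 and the others of the 12 were picked by the p of the difference itself, so their sizes are descriptions.

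The same difference can be read as the protein source difference on the MR diets minus that on the control diets. Among controls 100 genes (0.659%) passed between casein and elemental amino acids, 98 of them lower in casein controls. DESeq2 called 399 (2.63%) and limma voom 81. In edgeR the count was 313 with lymph node presence in the model, 177 within libraries with lymph node transcripts, 0 within those without and 170 without the muscle-rich libraries. Between oxidized casein MR and elemental MR 0 of 15176 genes passed in edgeR (0%), with 1060 at an unadjusted p under 0.05, while DESeq2 called 11 (0.0725%) and limma voom 0. Of the 14 fatty acid synthesis genes 9 were lower in casein controls than in elemental controls, with a median of -1.20. Between oxidized casein MR and elemental MR their median was -0.26, with 0 passing and 4 at an unadjusted p under 0.05. Acly was 4.10-fold lower in casein controls (edgeR adjusted p = 0.00427) and Elovl6 5.27-fold lower (edgeR adjusted p = 0.0117). Of the pyruvate carrier and dehydrogenase list 7 of 14 were lower in casein controls. The count of 100 ran from 24 to 202 when single libraries were left out. It was 24, 30, 33 and 35 without elemental control replicate 3, elemental control replicate 1, casein control replicate 6 and casein control replicate 1, and 53 and 55 without elemental control replicate 6 and casein control replicate 4. It was 66 without elemental MR replicate 1 or 2, and 177, 194 and 202 without casein control replicate 5, elemental control replicate 4 and elemental control replicate 2. Of the fatty acid synthesis genes 7 to 10 passed in each of these fits, and those of the pyruvate list numbered 2 without elemental control replicate 3 and 4 without casein control replicate 1 or elemental control replicate 1. These comparisons share the control libraries with the MR effects and are the same data arranged another way.

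**Figure D3:**
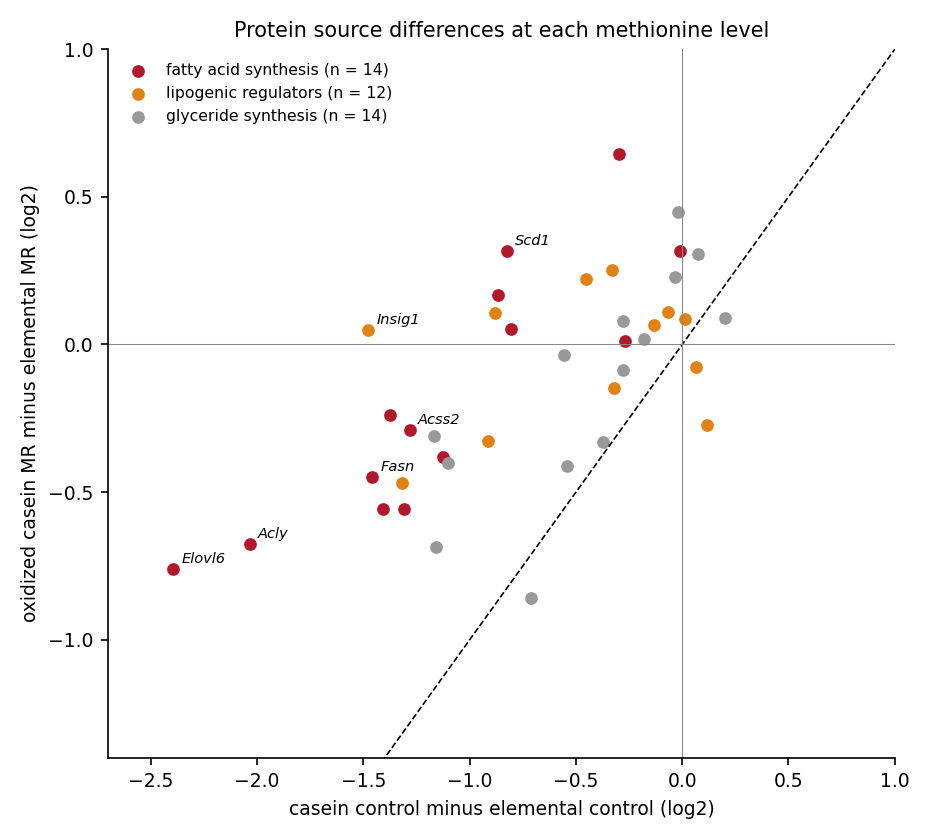
Protein source differences on the log2 scale, oxidized casein MR minus elemental MR (vertical axis) against casein control minus elemental control (horizontal axis), for fatty acid synthesis, regulator and glyceride synthesis genes. The dashed line marks equal differences. The fatty acid synthesis genes spread from -2.40 to -0.01 between controls and from -0.76 to 0.65 between MR diets.

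Among the 319 genes with an unadjusted p under 0.05 and a larger MR effect on casein, the largest of the 4 simple effects was casein control against elemental control in 123 (38.6%) and MR on casein in 116 (36.4%). Over all genes tested these shares were 22.0% and 36.9%. Their median log2 value between the controls was -0.53. Among the 187 genes with a smaller MR effect on casein the largest was MR on casein in 97 (51.9%) and the control difference in 37 (19.8%). These 506 genes were picked by the difference, which is built from these effects, so the shares only describe where it sat.

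Genes with a smaller MR effect on casein were then described. The process lists hold 427 tested genes (2.81% of all), and of these Hk1 alone (0.234%) had an unadjusted p under 0.05 in this direction, against 1.23% of all genes. Nup93, a scaffold protein of the nuclear pore, had 9.60, 11.7 and 14.6 CPM with oxidized casein MR, against 13.7, 17.5 and 22.3 CPM in casein controls. On elemental amino acids it had 14.0, 17.6 and 20.2 CPM with MR, against 14.7, 18.6 and 19.9 CPM in controls. Nup93 fell 1.51-fold with MR on casein (edgeR adjusted p = 0.0104), and 5 of 6 oxidized casein MR libraries lay below every elemental MR library. The difference was -0.51 (95% interval -0.89 to -0.13), and -0.31 within libraries without lymph node transcripts.

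Cacna1e, a subunit of a voltage-gated calcium channel, had 2.52, 4.79 and 9.18 CPM with oxidized casein MR, against 8.14, 10.3 and 15.1 CPM in casein controls. With elemental MR it had 4.06, 5.78 and 9.28 CPM, against 4.49, 6.06 and 8.59 CPM in elemental controls. Here the casein controls were the high group. The gene fell with MR on casein (log2 fold change -1.05, edgeR adjusted p = 0.0281) and had a difference of -1.07 (95% interval -1.86 to -0.27), which was -0.39 within libraries with lymph node transcripts and -1.70 within those without. Prps2, which makes the ribose donor of nucleotides, fell as well with MR on casein (edgeR adjusted p = 0.0482), with a difference of -0.72.

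The other 9 genes picked in this direction did not pass for either MR effect. Lamtor3, a subunit of the Ragulator complex that recruits mTORC1 to lysosomes in response to amino acids, had 11.5, 14.7 and 17.1 CPM with oxidized casein MR, against 16.6, 18.2 and 22.5 CPM in casein controls. Elemental MR libraries had 17.0, 19.5 and 23.8 CPM, against 13.8, 18.2 and 20.1 CPM in elemental controls. The difference was -0.53 (95% interval -0.88 to -0.18), and 5 of 6 oxidized casein MR libraries lay below every elemental MR library. For Rc3h2, an RNA-binding ubiquitin ligase, all 6 oxidized casein MR libraries lay below all 6 casein controls, and the difference was -0.38. B4galt3 (-0.68), Saal1 (-0.69), Map7 (-0.84), Aig1 (-0.54), Ankib1 (-0.50), Trp53bp1 (-0.44) and Mark3 (-0.39) made up the rest. B4galt3 and Trp53bp1 overlap genes on the other strand. All 12 kept their sign in both kinds of library; 4 were smaller by more than 1.5 times within libraries with lymph node transcripts, and within those without 4 were smaller and 2 larger by that much.

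**Figure D4:**
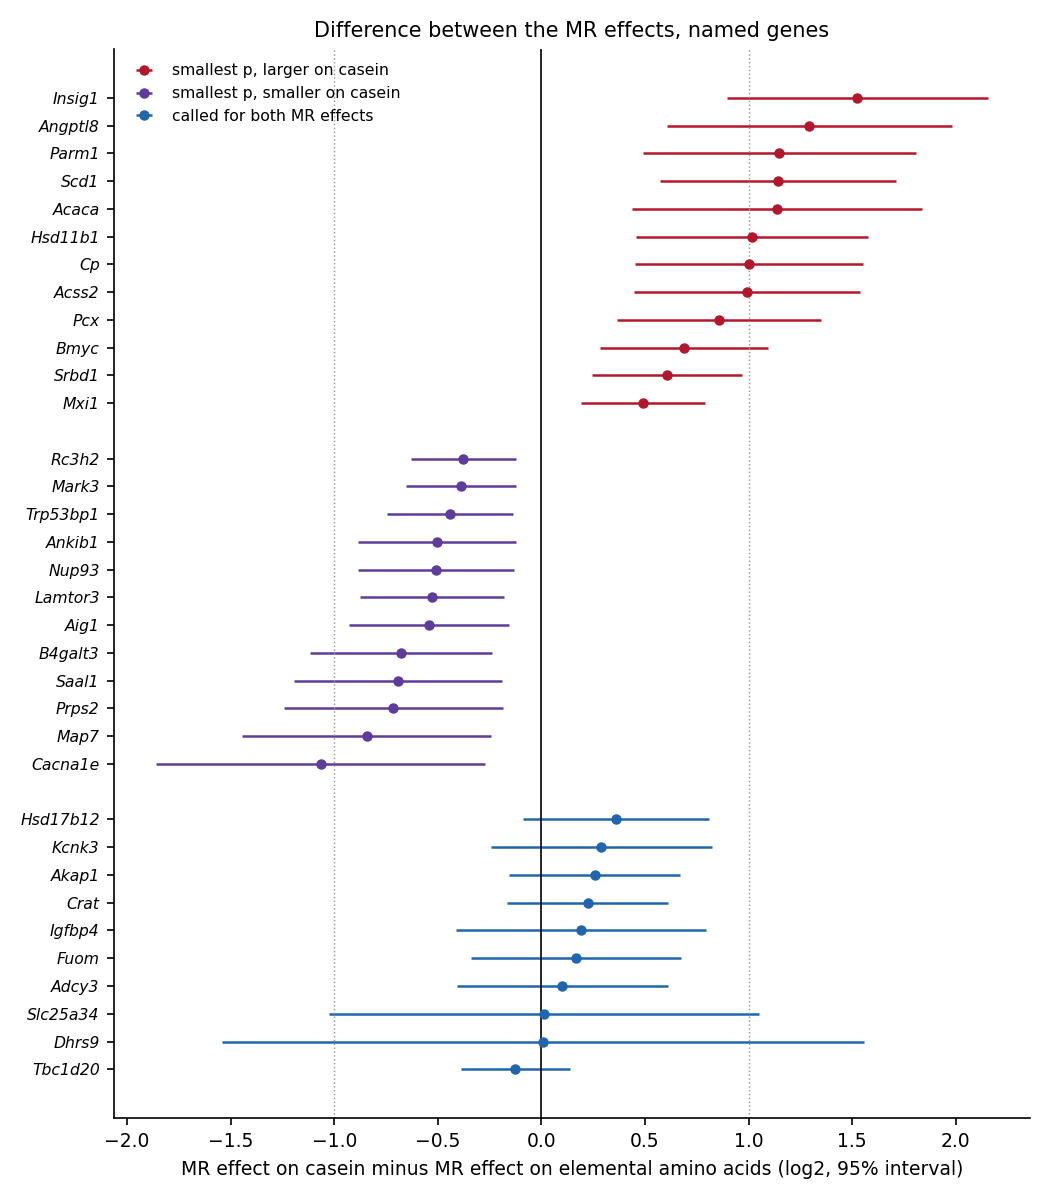
Difference between the MR effects (casein minus elemental amino acids, log2, horizontal axis) with its 95% interval for 34 named genes. Red and purple mark the 12 genes with the smallest unadjusted p in each direction, which were chosen for their difference. Blue marks 10 genes called for both MR effects, which are the terms of the difference, so these genes were not chosen independently of it. Their intervals all span 0, and dotted lines mark 1 log2 unit.

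Genes that MR moved on average over both protein sources were then described, since with 6 libraries per diet that average is close to independent of the difference. Of the 1061 genes called for the pooled MR effect (6.99%), 794 were higher with MR. Among these 667 (84.0%) had a difference above 0, against 51.3% of all genes. The median difference was 0.21, from a median log2 fold change of 0.65 on casein and 0.43 on elemental amino acids. At an unadjusted p under 0.05 there were 72 with a larger and 3 with a smaller effect on casein, and for 606 (76.3%) the interval lay within 1 log2 unit of 0. The 84.0% was 74.4% within libraries without lymph node transcripts and 89.8% without the muscle-rich libraries. Of the 267 genes that pooled MR lowered, 128 (47.9%) had a difference above 0, with a median of -0.01. The genes of each set come from the same 24 libraries and can vary together, so such counts are not separate observations.

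The 30 genes called in the same direction for each MR effect had a median difference of -0.03, with 14 above 0, and 25 had an interval within 1 log2 unit of 0. They were picked by passing for both MR effects, which are the terms of the difference, and only 37 genes passed on elemental amino acids. Their differences are therefore descriptions and do not show that shared genes respond equally. No gene was called in opposite directions. Slc25a34, a mitochondrial carrier, had 6.50, 23.7 and 32.1 CPM with oxidized casein MR, against 1.08, 2.30 and 6.33 CPM in casein controls. Levels with elemental MR were 30.5, 45.6 and 58.2 CPM, against 4.15, 4.90 and 9.90 CPM in elemental controls. The log2 fold changes were 2.97 and 2.96 while casein diets stood lower at each methionine level, and the interval of the difference, -1.03 to 1.05, was wide.

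Akap1, an anchor of kinase A on the mitochondrial surface, gave a tighter comparison. It had 62.7, 67.7 and 83.3 CPM with oxidized casein MR, against 25.8, 29.9 and 49.6 CPM in casein controls. On elemental amino acids it had 57.7, 77.0 and 88.0 CPM with MR, against 37.6, 46.4 and 49.9 CPM in controls. MR groups lay wholly above controls on each source, and the difference was 0.26 (95% interval -0.16 to 0.67). The potassium channel gene Kcnk3 had 0.29, carnitine acetyltransferase Crat 0.22 and the fatty acid elongation enzyme Hsd17b12 0.36. Igfbp4, a binding protein of insulin-like growth factors, fell on each source and had 0.19 (95% interval -0.41 to 0.79), a sign that turned to -0.06 with lymph node presence in the model.

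Mitochondrial lists leaned toward casein by small amounts. All 42 tested genes of nuclear oxidative phosphorylation were above 0 with a median of 0.30, 0 at an unadjusted p under 0.05, and 40 had an interval within 1 log2 unit of 0. MR raised 36 of them on casein (median 0.75), where 3.82% of all genes passed, and within libraries with lymph node transcripts 0 passed there. On elemental amino acids (median 0.47), where 0.244% of all genes passed, 0 passed in edgeR, 5 in DESeq2 and 22 in edgeR without elemental control replicate 1. Without that library the list median was 0.18 and that of the TCA cycle 0.13, and within libraries without lymph node transcripts the list median was 0.14. All 21 fatty acid oxidation genes were above 0 (median 0.19), as were all 19 of the TCA cycle (median 0.27, and -0.03 within libraries without lymph node) and all 8 mitochondrially encoded transcripts (median 0.37). Genes of 1 list vary together between mice, so such counts are not separate observations.

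The share of reads from mitochondrially encoded transcripts was 27.9% ± 4.36 with oxidized casein MR and 18.8% ± 3.61 in casein controls, and 32.9% ± 2.73 with elemental MR and 26.2% ± 3.97 in elemental controls (SD, n = 6 each). The difference between the MR effects was 2.44 percentage points (2-sided exact permutation test, protein source permuted within each methionine level, p = 0.544). That test assumes no protein source effect at either methionine level, while the elemental means were higher at both. Its p is therefore not a test of the difference alone. The difference ran from 0.87 to 3.51 points when single libraries were left out.

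Thermogenic genes had 23 of 25 members above 0 and a median of 0.29, with 0 at an unadjusted p under 0.05. MR raised 12 of them on casein, where 3.82% of all genes passed, and 6 on elemental amino acids, where 0.244% did. The median log2 fold changes were 1.26 and 1.04. Within libraries with lymph node transcripts 2 passed on casein and 1 on elemental amino acids. The 6 became 1 without elemental MR replicate 4 or 6 or elemental control replicate 2, 4 or 5, and 2 without elemental control replicate 6. Ucp1, the uncoupling protein of brown and beige adipocytes, had 99.4, 1127 and 1791 CPM with oxidized casein MR, against 7.12, 71.7 and 431 CPM in casein controls. With elemental MR it had 1255, 1748 and 2619 CPM, against 15.6, 352 and 1211 CPM in elemental controls. Its difference was 0.95, against 2.04 with lymph node presence in the model and 2.61 within libraries without lymph node transcripts, where elemental MR had 1 library. The interval, -1.47 to 3.37, covers MR effects that differ several fold either way. Cox7a1, a cytochrome oxidase subunit of oxidative muscle and brown fat, had log2 fold changes of 2.16 on casein and 1.16 on elemental amino acids (SE of the difference 0.78).

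Lists tied to amino acid supply differed in where they stood against the median of 0.01 over all genes. ATF4 targets, which respond to amino acid shortage, had 19 of 33 above 0 and a median of 0.07, which turned to -0.04 with lymph node presence in the model and -0.12 within libraries without lymph node. The methionine cycle and transsulfuration list had 16 of 22 above 0 and a median of 0.11, and folate enzymes 8 of 15 and 0.05, a sign that turned within libraries without lymph node and in limma voom. Methionine sulfoxide reductases, which repair the oxidized form of methionine, had 4 of 4 above 0 with a median of 0.22 and none at an unadjusted p under 0.05, and the median was 0.06 with lymph node presence in the model and 0.03 within libraries without lymph node transcripts. Glutathione and NRF2 targets had 21 of 24 above 0, 3 at an unadjusted p under 0.05 and a median of 0.33, which was 0.19 with lymph node presence in the model and 0.21 within libraries with lymph node transcripts. Among them Nqo1, a quinone reductase, had a difference of 0.98 and Gclm, of glutathione synthesis, 0.49. Within libraries with lymph node transcripts these were 0.35 and 0.26, and with lymph node presence in the model Nqo1 was 0.64.

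Other process lists were nearer to 0 or depended on the libraries. Branched-chain amino acid catabolism had 18 of 20 above 0 (median 0.25, and 0.08 with lymph node presence in the model or within libraries without lymph node transcripts). Interferon response had 8 of 18 above 0, and its median of -0.02 was above 0 in 11 of the 24 fits that left out 1 library. Medians of insulin signalling (0.14), white adipocyte genes (0.25), lipolysis (0.18), the circadian clock (0.08) and extracellular matrix (0.39) each turned below 0 under at least 1 other setting. Of all 24 process lists 15 kept the sign of their median in every setting tried, single libraries left out included, and 9 did not. Extracellular matrix had 26 of 28 above 0, with medians of -0.23 for MR on casein and -0.64 for MR on elemental amino acids, and was at 0.00 within libraries with lymph node.

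**Figure D5:**
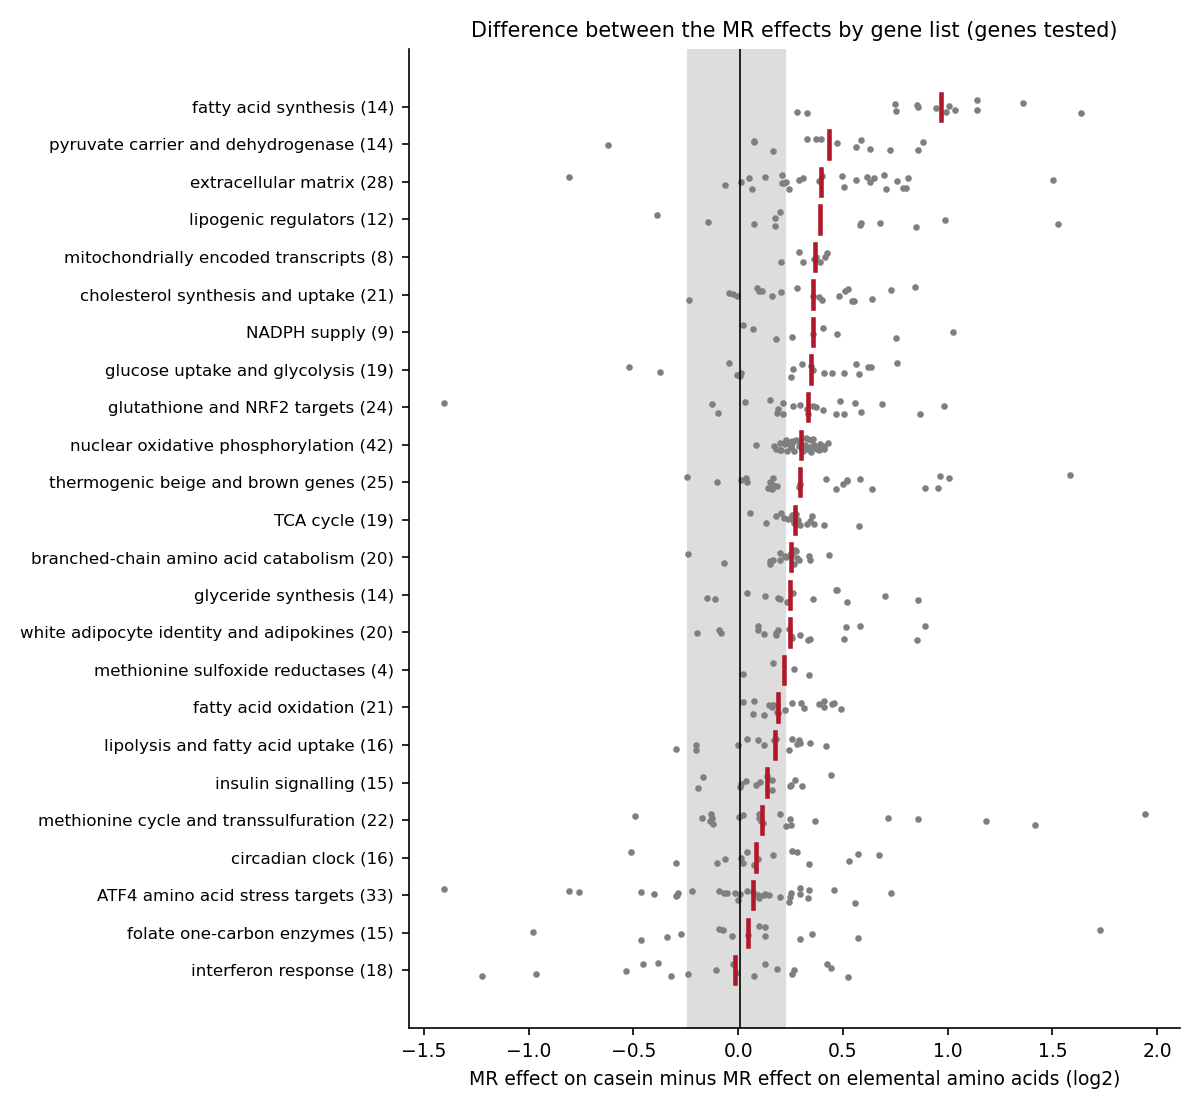
Difference between the MR effects (casein minus elemental amino acids, log2, horizontal axis) for each tested member of the 24 process lists (grey points) with the list median (red). The black line is the median of all genes tested and the shaded band their middle 50%. Fatty acid synthesis has the highest median (0.97), and the medians of 9 lists, among them extracellular matrix, the TCA cycle and interferon response, change sign under some other setting.

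Markers of other cells moved with the contrast as well. All 14 B cell markers were below 0 with a median of -1.29, which was 0.20 with lymph node presence in the model, and 15 of 15 T cell markers were below 0 (median -0.92, which was 0.50 with lymph node presence in the model, 0.18 within libraries with lymph node transcripts and 1.42 within those without). Mean B cell marker levels ran from -0.33 to 6.03 log2 CPM in oxidized casein MR, 0.25 to 6.63 in casein control, 1.25 to 6.07 in elemental MR and 0.03 to 5.98 in elemental control.

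Skeletal muscle markers had 15 of 15 above 0 with a median of 1.75, which was -1.69 without elemental control replicate 2. Hepatocyte markers had 10 of 10 above 0 (median 1.65, and -0.93 within libraries with lymph node). That median was 0.14 without elemental control replicate 6. Their highest mean level was 9.03 in elemental control, against 6.48 in oxidized casein MR, 6.00 in casein control and 6.61 in elemental MR. Red blood cell markers had 7 of 7 above 0, 6 at an unadjusted p under 0.05 and a median of 1.32, which was 0.57 within libraries with lymph node transcripts and 2.95 within those without, though the globin genes among them are near-identical copies and their counts are uncertain. Their mean level ran from 6.61 to 8.13 in oxidized casein MR, 6.24 to 7.19 in casein control, 6.16 to 7.51 in elemental MR and 6.28 to 8.00 in elemental control. Keratinocyte and ductal epithelium markers had 5 of 5 and 6 of 6 members above 0, and their medians within libraries with lymph node transcripts were 0.41 and 0.21, against 1.33 for keratinocyte markers in all 24 libraries. Macrophage, endothelial and smooth muscle markers had medians of 0.13, -0.02 and 0.02. The part of these cells in the differences of the gene lists was not tested beyond the settings given.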

How the data were processed

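Per the labels' protocols, IWAT RNA of 24 mice was made into 3′ mRNA libraries and sequenced as 50 bp forward reads. The authors deposited raw counts per gene as whole numbers, which a 3′ method gives without growth by transcript length. R 3.4.3, DESeq2 1.18.1 and the builds GRCm38 and mm10 stand in the submitters' processing notes. An aligner, a counting program and a strand rule are not given there or in the labels. The smallest gene total listed was 72 reads over all libraries.

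The main test of the counts used edgeR 4.0.16 under R 4.3.3 (filterByExpr, TMM scaling, robust quasi-likelihood fit, 1 mean per diet over 24 libraries, 2-sided), and p-values were adjusted by Benjamini-Hochberg over 15176 genes at a threshold of 0.05, leaving 1645 genes untested. DESeq2 1.42.0 and limma 3.58.1 (voom) were alternatives. DESeq2 kept its default filter on mean count, so its adjustment covered a set of genes that differed between fits. Standard errors came from the information matrix of the fit rather than from the F statistic as first planned, because the planned form fails near 0. The fit was checked on simulated data. Levels are TMM-scaled CPM, given as lowest, median and highest of 6 libraries. Symbols and coordinates are from GENCODE M21 on GRCm38 and gave 16771 symbols.

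The 24 process and 14 marker lists, and the contrast itself, were chosen with earlier results of these data known. Named genes were the 12 with the smallest unadjusted p in each direction with an average log2 CPM of 2 or more, lipogenic list members, the 4 with the smallest p in other lists, and 10 of those called for both MR effects; some of these are not reported here. The labels give each library its own mouse number, so libraries were taken as separate mice. Reads carry no molecular identifiers. No label gives a sequencing batch.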

Additional observations from a re-analysis of the deposited data

Results flagged for a closer look

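Among 180 groups of 6 libraries, 10 held a library whose gap to the nearest other exceeded Dixon's 95% limit, where chance alone flags about 1 in 20 groups. The library of oxidized casein MR replicate 1 had 176.4 CPM of Insig1, against 90.2 to 107 CPM in the other 5, and Slc25a34 in oxidized casein MR replicate 6 was 6.50 CPM, against 20.02 to 32.1 CPM. In casein control replicate 6, Pcx was 56.7 CPM (others 101.7 to 137), Slc25a1 101.4 CPM (others 184 to 252) and Tbc1d20 50.7 CPM (others 65.6 to 71.1). In elemental MR, Acly was 1931 CPM in replicate 4 (others 769 to 1069.9) and Akap1 57.7 CPM in replicate 3 (others 75.2 to 88.0). In elemental controls, Hsd11b1 was 330.4 CPM in replicate 2 (others 168 to 212), and replicate 1 had 14.7 CPM of Nup93 (others 18.3 to 19.9) and 328.6 CPM of Hsd17b12 (others 187 to 227).

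DESeq2 called the difference between the MR effects for Insig1 (1.55, adjusted p = 0.0111) and Scd1 (1.16, adjusted p = 0.0381), each with a larger MR effect on casein, while edgeR and limma voom called neither.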

How the results depend on the processing

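The count of genes called for the difference was 0 in edgeR under every scaling, filter, lymph node, muscle and left-out library setting tried and in limma voom, and 2 in DESeq2. In DESeq2 it was 7 with lymph node presence in the model (Acaca, Fasn, Acss2, Parm1, Scd1, Insig1 and H2-Q10), 2 without the muscle-rich libraries, and 0 to 8 when single libraries were left out. These DESeq2 counts also moved with the set of genes its default filter kept. Scd1 had an unadjusted DESeq2 p of 1.39e-05 (adjusted p = 0.00896) with lymph node presence in the model. Without the muscle-rich libraries that p was smaller, 5.6e-06, with an adjusted p of 0.047. The count at an unadjusted p under 0.05 in edgeR ran from 311 (without casein control replicate 6) to 1062 (without casein control replicate 5). The pooled MR effect called 1941 genes with lymph node presence in the model, 344 within libraries with lymph node transcripts, 320 within those without, and 862 to 1301 when single libraries were left out. Intervals within 1 log2 unit numbered 5201 within libraries without lymph node transcripts and 7956 to 8698 with single libraries left out. The glyceride synthesis median ran from 0.16 (without casein control replicate 2) to 0.48 (without casein control replicate 5), and the percentage of pooled MR genes above 0 from 73.3 to 89.9.

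Signs turned for these genes, none of which passed. Lep, leptin, was -0.36 with lymph node presence in the model and -1.05 within libraries without lymph node, and ran from -0.23 to 1.28 with single libraries left out. Igfbp4 was -0.0635 and -0.0697 under the same settings. Slc25a34 was -0.29 within libraries with lymph node and -0.0014 without the muscle-rich ones, and ran from -0.18 to 0.42. Dhrs9, a retinol dehydrogenase called for both MR effects (difference 0.01), was -0.44 in limma voom and ran from -0.37 to 0.46. Asns was -0.11 within libraries with lymph node. Acta1 ran from -2.14 to 5.00 over single libraries left out. The DESeq2 refits were chosen after seeing the data. The causes were not tested. No paired analysis was possible because the labels give mouse numbers only, and replicate numbers were given in accession order.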

Other observations

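Fgf21, a hormone of amino acid restriction made mainly by liver, had 0 to 14 reads per library and was not tested. The prolactin receptor gene Prlr had a difference between the MR effects of 1.48 (95% interval 0.31 to 2.65). That difference was 0.90 with lymph node presence in the model, 0.39 within libraries with lymph node transcripts and 1.91 within those without. Prlr is on the ductal epithelium marker list, whose tested members all had differences above 0. The part of ductal tissue in the Prlr difference was not tested. Lgr6, a receptor for R-spondins, had 1.23, and 1.85 with lymph node presence in the model. The circadian regulator Nr1d1 had 0.53, and 0.26 within libraries with lymph node transcripts, in a list whose median changed sign under other settings.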
